A study of Mus musculus with 12 samples.

Results

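The 10 genes of nitrogen disposal and periportal metabolism were followed in mouse liver. They are Cps1, Otc, Ass1, Asl and Arg1, the 5 enzymes of the urea cycle, Nags, which makes the activator of Cps1, and Gls2, Hal, Sds and Pck1, which feed ammonia or carbon skeletons into the same cells. They were taken by gene symbol from a table of 24421 genes. All 10 were found, and all 10 were among the 13880 genes with enough counts to test. The libraries came from liver tissue without tumour of 12 male mice killed at 4 months of age, 3 in each of 4 groups. LiK mice and LiKM mice received either a normal diet or, starting at an age of 5 weeks, a diet to which 0.06% ACR was added. ACR is an acyclic retinoid, a synthetic relative of vitamin A. The labels do not define the strains. As the study is known, hepatocytes of LiKM mice were designed to lack Mdm2, which marks p53 for degradation, and those of LiK mice were not. Livers of other strains are not analysed here. The driver of the recombination is not named in the labels.

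The urea cycle turns ammonia, which is toxic, into urea for excretion. Cps1 (carbamoyl phosphate synthetase) and Otc (ornithine transcarbamylase) work inside mitochondria, and Ass1 (argininosuccinate synthase), Asl (argininosuccinate lyase) and Arg1 (arginase) complete the cycle in the cytosol. Nags makes N-acetylglutamate, without which Cps1 is inactive. These genes are expressed most strongly by hepatocytes around the portal vein, which also hold liver-type glutaminase (Gls2), histidine ammonia lyase (Hal), serine dehydratase (Sds) and cytosolic phosphoenolpyruvate carboxykinase (Pck1, a control step of gluconeogenesis), whereas hepatocytes around the central vein capture the remaining ammonia as glutamine. Glucagon, glucocorticoids, fasting and dietary protein are known to raise the transcripts of many of them.

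In the mouse genome build mm10, Ass1 (chr2:31470207-31520672) and Pck1 (chr2:173153048-173159273) lie on the plus strand of chromosome 2, and Otc (chrX:10252305-10321024) on the plus strand of the X chromosome. Cps1 lies at chr1:67123026-67231259 (plus) and Asl at chr5:130011258-130029247 (minus). Chromosome 10 holds Arg1 (24915221 to 24927484, minus), Gls2 (128194457 to 128210004, plus) and Hal (93488768 to 93519304, plus). Sds (chr5:120476526-120483932) and Nags (chr11:102145513-102149477) are on the plus strand. All are protein-coding, and each value below is a count over a gene as a whole. RefSeq promoter sequences (GRCm38.p6) were found for 5 of the 10 genes, Ass1, Otc, Nags, Hal and Pck1. The 3 printed here, 5′ to 3′ in the direction of the gene, belong to a mitochondrial and a cytosolic urea cycle gene that were lower in LiKM livers and to Pck1, whose estimate for ACR in LiK livers lay on the other side of 0 from theirs. Each covers 250 bases before to 50 after the start site (Otc chrX:10252055-10252354, Ass1 chr2:31470020-31470319, Pck1 chr2:173152823-173153122, all plus strand), and capitals mark motif matches.
Otc: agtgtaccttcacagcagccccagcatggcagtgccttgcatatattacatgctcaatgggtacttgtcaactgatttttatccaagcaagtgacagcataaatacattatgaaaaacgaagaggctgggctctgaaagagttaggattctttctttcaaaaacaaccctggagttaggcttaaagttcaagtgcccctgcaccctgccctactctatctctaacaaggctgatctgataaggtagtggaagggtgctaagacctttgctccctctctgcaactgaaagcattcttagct
Ass1: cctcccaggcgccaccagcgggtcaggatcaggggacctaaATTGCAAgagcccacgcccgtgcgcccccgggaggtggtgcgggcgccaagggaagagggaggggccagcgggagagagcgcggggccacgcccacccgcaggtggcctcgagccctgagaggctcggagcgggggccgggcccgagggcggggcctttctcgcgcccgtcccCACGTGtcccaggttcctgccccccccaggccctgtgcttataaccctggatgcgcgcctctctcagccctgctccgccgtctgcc
Pck1: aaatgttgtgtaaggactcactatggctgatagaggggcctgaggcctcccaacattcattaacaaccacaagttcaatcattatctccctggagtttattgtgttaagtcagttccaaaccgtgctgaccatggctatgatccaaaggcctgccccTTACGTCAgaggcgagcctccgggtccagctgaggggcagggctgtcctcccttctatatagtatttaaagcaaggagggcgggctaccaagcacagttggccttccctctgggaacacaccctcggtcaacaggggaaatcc

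A set of 7 motifs of factors that act on liver metabolic genes was searched on both strands, and matches were allowed to overlap. The Pck1 promoter held TTACGTCA, a variant of the cyclic AMP response element, 93 bases before the start site, a word found in 0.499% of 32851 mouse promoters of the same length. The Ass1 promoter held ATTGCAA, the reverse strand of the C/EBP word TTGCAAT (2.22% of promoters), 209 bases before the start, and the E-box CACGTG (7.15%) 36 bases before it. No searched motif was found in the Otc or Nags window, and the Hal window held only TATAAA, read on the opposite strand (13.6%). TGACGTCA (1.79%), TTATGTAA (0.938%) and TAGGTCA (2.61%) occurred in none of the 5 windows. These are letter matches, and binding was not measured.

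Library totals ran from 10124813 to 18647156 counts, and mean counts per library from 737 for Nags to 69100 for Cps1. Albumin took 8.01% to 13% of counts and the 5 urea cycle enzymes together 0.427% to 0.967%, while the kidney genes Slc12a1 and Kap stood at 0 in all 12 libraries. Mdm2, counted over the whole gene, stood at 21.6 to 25.8 CPM (counts scaled by library depth) in the 6 LiK libraries and 29.0 to 67.2 CPM in the 6 LiKM libraries, higher in every LiKM than in every LiK library. A whole-gene count does not check a deletion of part of a gene. In libraries from whole tissue, fewer hepatocytes and less RNA per hepatocyte cannot be told apart. In all, 5 livers stood apart in some genes that rise with feeding: all 3 of LiK on ACR, the third LiKM liver on the normal diet and the third LiKM liver on ACR. Elovl6, a fatty acid elongase that rises with feeding, was at 159 to 331 CPM in those 5 and at 521 to 915 CPM in the other 7. These livers and Elovl6 were singled out after the values were seen. Of 11 genes that rise with feeding, 5 (among them Srebf1, Fasn, Elovl6 and Thrsp) lay lower in all of these livers than in all others, and 6 did not (Pnpla3, Scd1, Acly, Acaca, Me1 and Pklr). No source used here states the hour of killing or the time since feeding.

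Per kilobase of exon, Cps1 was the most abundant member, with a mean of 839 CPM per kilobase over the 12 libraries, followed by Pck1 (700), Arg1 (481) and Ass1 (413). A lower tier held Sds (87.0), Otc (77.8), Gls2 (75.1) and Asl (74.8), whose means lay closer together than their spread between livers. Hal followed with 44.1 and Nags was lowest with 17.4 CPM per kilobase. Across livers Asl varied most, by 4.65-fold from the lowest to the highest library, and Nags least, by 1.68-fold. Sds (4.03-fold), Hal (3.68-fold), Pck1 (3.42-fold) and Cps1 (3.41-fold) were also variable, and Otc (2.05-fold) and Gls2 (2.33-fold) less so. The values of Ass1 and Sds were not whole numbers in 66.7% of libraries and those of Gls2 in 33.3%, as arises when reads are divided among genes, so their levels are less certain. Exons of Sds overlap those of Plbd2 by 360 bases on the other strand and those of Gm15690 by 141, exons of Nags overlap Gm11586 by 443, and exons of Gls2 overlap Spryd4 by 97. No source used here gives the strand setting of the counting, so these reads cannot be told apart.

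**Figure D1:**
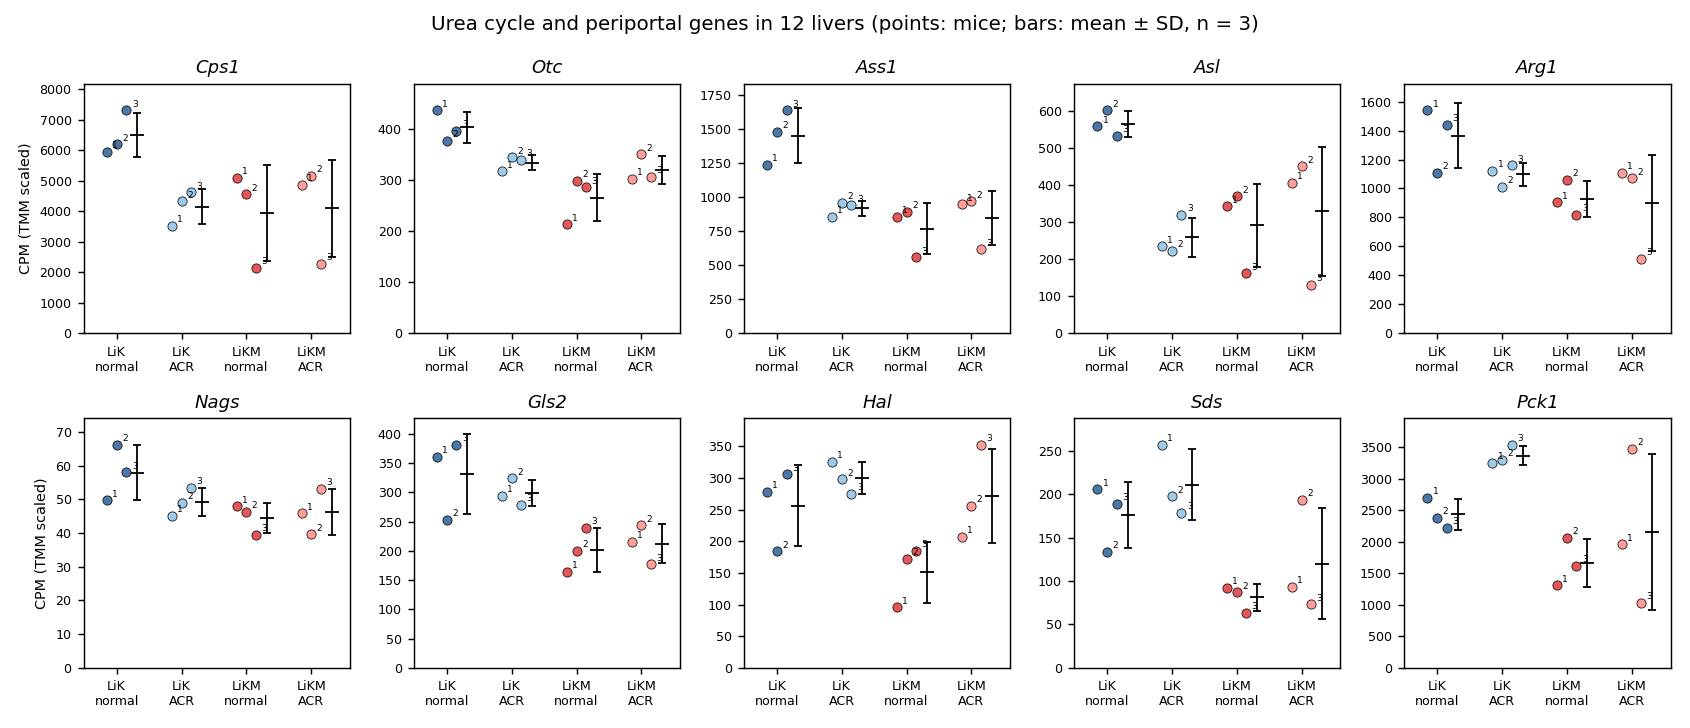
Level of each of the 10 genes (CPM, vertical axis, starting at 0) in each of the 12 livers (points), with the group mean and SD (bars), by strain and diet. The 3 LiK livers on the normal diet lay above all 9 others for Cps1, Otc, Ass1 and Asl.

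On the normal diet all 10 genes had lower estimates in LiKM than in LiK livers, and 4 fell: the urea cycle enzymes Ass1 (1.89-fold lower) and Otc (1.52-fold lower), the glutaminase Gls2 (1.65-fold lower) and the serine-degrading enzyme Sds (2.17-fold lower). The threshold was an edgeR adjusted p of 0.05 (quasi-likelihood test, Benjamini-Hochberg method over all tested genes), at which 8.61% of tested genes were lower and 13.2% higher. In 9 of the 10 genes every LiKM library lay below every LiK library, against 19.4% of all tested genes. The median log2 fold change was -0.72 over the 10 genes and 0.02 over all genes. As the study is known, this comparison is meant to show the effect of losing Mdm2, a loss that the counts here do not check.

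Among the mitochondrial enzymes, Otc stood at 436, 376 and 396 CPM in LiK and at 213, 298 and 285 CPM in LiKM livers on the normal diet. The groups did not overlap, and the log2 fold change was -0.60 (SE 0.14, edgeR adjusted p = 0.0101). Cps1, the most abundant member, stood at 5950, 6190 and 7300 CPM in LiK and at 5090, 4550 and 2140 CPM in LiKM. All LiKM values were below all LiK values, and the third LiKM liver was far below the others of its group. The log2 fold change of -0.72 (SE 0.34) did not pass (edgeR adjusted p = 0.147). Nags was at 57.9 ± 8.21 CPM in LiK and 44.5 ± 4.52 CPM in LiKM (SD, n = 3), with an edgeR adjusted p of 0.0706.

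Of the cytosolic enzymes, Ass1, which joins citrulline and aspartate, stood at 1240, 1480 and 1640 CPM in LiK and at 857, 894 and 557 CPM in LiKM. Its log2 fold change was -0.92 (SE 0.21, edgeR adjusted p = 0.0117), and it was the only one of the 4 whose call held in every alternative run. Asl, the next enzyme, stood at 560, 603 and 534 CPM in LiK and at 343, 370 and 162 CPM in LiKM. The groups did not overlap, and the third LiKM liver was again the lowest. The log2 fold change of -0.96 (SE 0.41) did not pass (edgeR adjusted p = 0.124), nor did it without that liver (-0.69, edgeR adjusted p = 0.29), but it passed without the third LiKM liver on ACR (-0.96, edgeR adjusted p = 0.0242). Arg1, the last enzyme, was at 1360 ± 229 CPM in LiK and 928 ± 124 CPM in LiKM (SD, n = 3), a log2 fold change of -0.56 with an edgeR adjusted p of 0.134.

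Outside the cycle, Gls2 stood at 361, 253 and 381 CPM in LiK and at 164, 200 and 240 CPM in LiKM (log2 fold change -0.72, SE 0.18, edgeR adjusted p = 0.0177). Sds stood at 206, 134 and 189 CPM in LiK and at 92.6, 87.3 and 63.6 CPM in LiKM (log2 fold change -1.12, SE 0.33, edgeR adjusted p = 0.0329). Neither pair of groups overlapped. Hal, the first step of histidine breakdown, was the only member whose groups overlapped, with 278, 184 and 306 CPM in LiK and 95.9, 172 and 185 CPM in LiKM, and its log2 fold change of -0.76 (SE 0.27) had an edgeR adjusted p of 0.0605. Pck1 was at 2430 ± 241 CPM in LiK and 1660 ± 376 CPM in LiKM (SD, n = 3), with an edgeR adjusted p of 0.263.

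The calls for Otc, Gls2 and Sds depended on the fit. Scaling by library size alone moved the all-gene median log2 fold change to 0.40 and left Ass1 as the only call, and a fit of these 6 libraries alone left 2 calls. Leaving out any one of the normal-diet livers moved the number of members called between 2 and 5, and leaving out the third LiKM liver on ACR raised it to 7. Without the LiKM livers numbered 3, an alternative chosen after the values were seen, 6 members were lower by edgeR. Asl (-0.68, adjusted p = 0.0131), Arg1 (-0.48, adjusted p = 0.0461) and Hal (-0.95, adjusted p = 0.0372) then passed, and Sds did not (adjusted p = 0.0563).

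**Figure D2:**
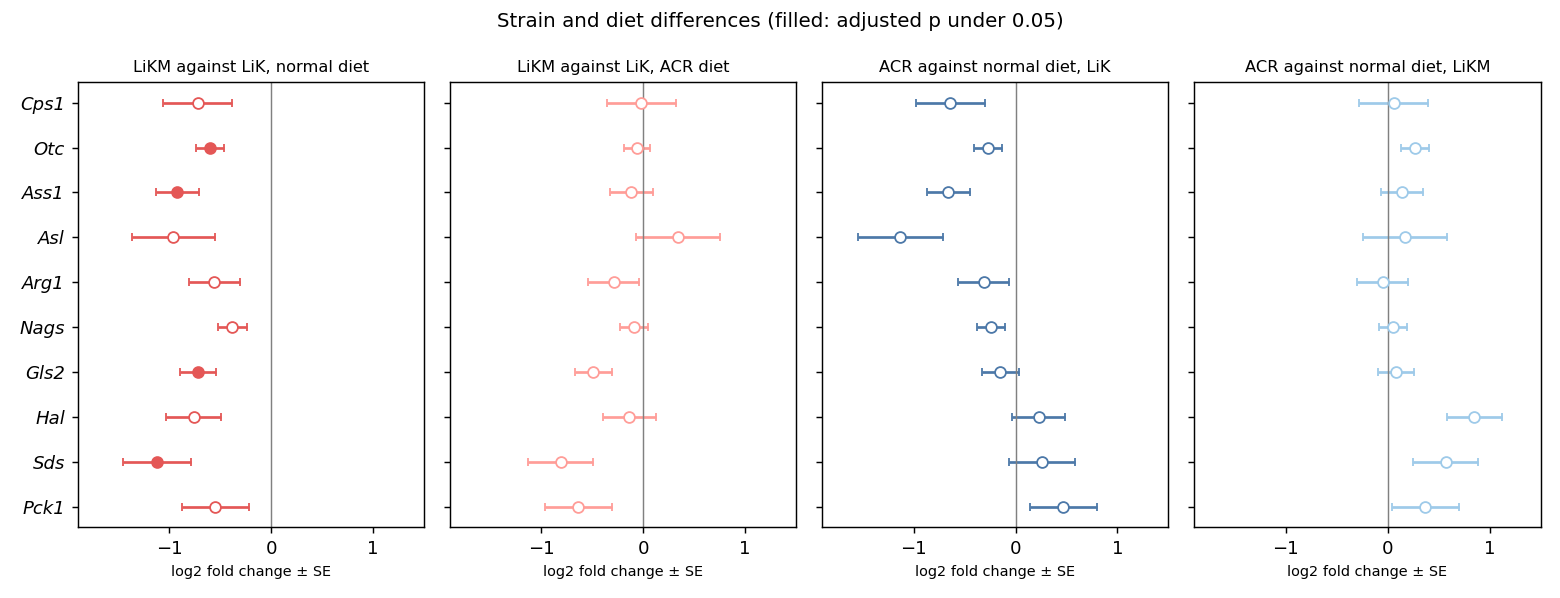
Log2 fold change of each gene (horizontal axis) with its standard error (bars) in both strain comparisons and both diet comparisons, with filled points for genes past an edgeR adjusted p of 0.05. Filled points stand only at Ass1, Otc, Gls2 and Sds in LiKM against LiK on the normal diet.

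Genes around the cycle also moved. Of 23 tested carriers, substrate suppliers and paralogs, 8 fell and 2 rose in LiKM on the normal diet. Car5a, the mitochondrial carbonic anhydrase that supplies bicarbonate to Cps1, fell from 54.0 ± 6.98 to 26.1 ± 8.54 CPM (edgeR adjusted p = 0.0037). Got2, the mitochondrial aspartate aminotransferase, fell from 624 ± 31.5 to 412 ± 48.1 CPM (edgeR adjusted p = 0.00839, SD, n = 3 throughout). Got1, Slc25a13 (the mitochondrial aspartate/glutamate carrier) and the amino acid transporters Slc7a2, Slc38a3 and Slc38a4 were among those that fell. Slc25a15, the mitochondrial ornithine carrier, was at 305 ± 42.8 and 215 ± 44.3 CPM and did not pass (edgeR adjusted p = 0.0792), and Glul, the pericentral glutamine synthetase, at 1090 ± 179 and 698 ± 423 CPM did not pass either (edgeR adjusted p = 0.363).

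Markers of cholangiocytes, the cells of the bile ducts, moved with the strain. All 12 listed (Krt19, Krt7, Epcam, Spp1, Sox9, Cldn4, Cldn7, Cftr, Prom1, Ehf, Cd24a and Tspan8) rose in LiKM on both diets, with a summed level of 36.8 to 54.7 CPM in LiK and 648 to 1080 CPM in LiKM on the normal diet, and of 38.2 to 191 CPM in LiK and 351 to 543 CPM in LiKM on ACR. Their part in the members' strain differences was not tested. Of 15 hepatocyte markers, 14 had estimates below and 1 above 0 on the normal diet (median log2 fold change -0.33). On that diet 3 fell (F2, Serpinc1 and Ttr), and none passed on ACR, where 6 had estimates above and 9 below 0. Their summed level on the normal diet was 148000 to 207000 CPM in LiK and 126000 to 136000 CPM in LiKM, and its part in the members' lower values was not tested. Some markers of other cells rose in LiKM on the normal diet, where 13.2% of all tested genes were higher. These were 6 of 8 tested markers of T and NK cells (median log2 fold change 2.64) and 3 of 4 of neutrophils (1.84). They also included 4 of 10 of stellate cells (0.77), 3 of 15 of macrophages (0.42) and 1 of 8 of endothelial cells (0.26), the last near that share. Cd4, listed with the T and NK cell markers, fell (log2 fold change -0.82, edgeR adjusted p = 0.0375). On ACR 2, 3, 1, 6 and 0 markers of these cells rose, in the same order, against 5.55% of all tested genes. The T and NK cell markers summed to 5.78 to 7.29 CPM in LiK and 7.62 to 15.3 CPM in LiKM on the normal diet, those of neutrophils to 2.32 to 5.43 and 10.3 to 13.4 CPM, those of stellate cells to 221 to 544 and 356 to 733 CPM, and those of macrophages to 195 to 366 and 297 to 472 CPM. The part of these cells in the members' values was not tested.

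Neighbouring amino acid and glucose pathways were counted in the same way. Of 13 tested genes of histidine, serine, threonine and glycine breakdown, 6 fell in LiKM on the normal diet, among them Gcat (60.1 ± 3.11 to 39.3 ± 0.425 CPM, edgeR adjusted p = 0.00113), which acts in threonine breakdown, and Uroc1 (531 ± 123 to 334 ± 38.2 CPM, edgeR adjusted p = 0.0276), the enzyme after Hal. Beside Pck1, 6 of 16 genes of gluconeogenesis fell, including Pcx (pyruvate carboxylase, log2 fold change -0.57, edgeR adjusted p = 0.0133) and the malate dehydrogenase Mdh1 (-0.52, edgeR adjusted p = 0.00699). Pck2, the mitochondrial counterpart of Pck1, was the 1 gene of this list that rose, from 5.87 ± 1.10 to 10.8 ± 1.89 CPM (edgeR adjusted p = 0.0211). Medians of the log2 fold change were -0.43 and -0.52 for these lists.

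Some genes of each end of the lobule fell. Of 17 other periportal genes 4 fell in LiKM on the normal diet, Cyp2f2 (1110 ± 111 to 601 ± 145 CPM), Sult5a1, Uroc1 and Etnppl, and the median log2 fold change was -0.35. Of 19 pericentral genes 3 fell, among them Cyp1a2 and Cyp27a1, and the amino acid transporter Slc1a4 rose, with a median of -0.42. A difference between the zones was not tested. Among 23 receptors and transcription factors known to act on urea cycle, gluconeogenic or periportal genes, 5 fell: Ppara, Creb3l3, Insr, Nr3c1 (the glucocorticoid receptor) and Sirt1. Ppara, a fasting-activated nuclear receptor, stood at 449 ± 48.2 CPM in LiK and 268 ± 37.7 CPM in LiKM (edgeR adjusted p = 0.0042). The glucagon receptor, Hnf4a, Cebpa and Klf15 did not pass on the normal diet. On ACR, where no member passed, 5 of the 23 fell as well, against 4.24% of all tested genes. They were Ppara (log2 fold change -0.99, edgeR adjusted p = 0.0034), Insr, Creb3l3, Cebpa (-1.05, adjusted p = 0.0186) and Nr2f2. The part of these regulators in the members' levels was not tested.

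**Figure D3:**
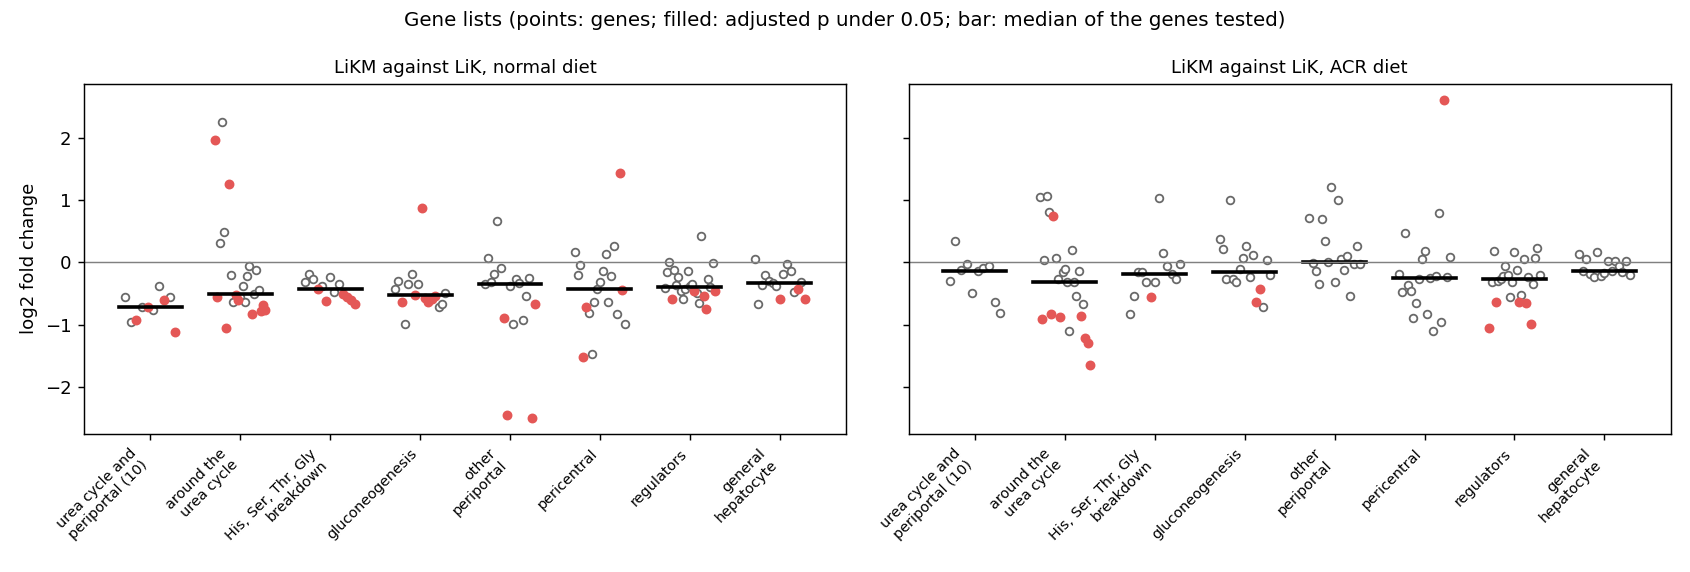
Log2 fold change of LiKM against LiK (vertical axis) of each tested gene (points, filled past an edgeR adjusted p of 0.05) in 8 gene lists, with the list median (bar), for the normal diet (left) and ACR (right). All 8 lists, those of pericentral genes, regulators and general hepatocyte markers included, had more estimates below than above 0 on the normal diet.

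With ACR in the diet, 0 of the 10 genes differed between the strains at the threshold in edgeR, against 4.24% of all tested genes lower and 5.55% higher. At an unadjusted p under 0.05 there were 2, Gls2 and Sds, beside 3825 of all 13880 tested genes, and DESeq2 called 0 members. Gls2 stood at 294, 324 and 279 CPM in LiK and at 216, 244 and 177 CPM in LiKM, the only member with no overlap between the groups (16% of all tested genes lay below in this way), and its log2 change was -0.49 (SE 0.18, edgeR adjusted p = 0.106). Sds was at 257, 198 and 179 CPM in LiK and at 93.7, 194 and 73.3 CPM in LiKM, where the second LiKM liver overlapped the LiK livers (log2 fold change -0.81, SE 0.32, edgeR adjusted p = 0.132). Without that liver Sds (-1.34, adjusted p = 0.0185) and Pck1 (-1.17, adjusted p = 0.0391) were lower in edgeR.

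Of the urea cycle enzymes on ACR, Cps1, Ass1 and Otc had means close together in the strains. Cps1 was at 4140 ± 566 CPM in LiK and 4090 ± 1600 CPM in LiKM, and Ass1 at 918 ± 54.1 and 845 ± 198 CPM (SD, n = 3). Otc was at 333 ± 14.4 and 319 ± 26.9 CPM. Their log2 fold changes were -0.02, -0.12 and -0.06, with edgeR adjusted p-values of 0.981, 0.758 and 0.813. Asl stood at 235, 222 and 320 CPM in LiK and at 406, 452 and 130 CPM in LiKM, so that LiKM livers were both above and below the LiK range. Its log2 fold change was 0.34 (edgeR adjusted p = 0.637). Arg1 was at 1100 ± 81.0 CPM in LiK and 897 ± 334 CPM in LiKM (SD, n = 3), with a log2 fold change of -0.29 and an edgeR adjusted p of 0.491. An alternative chosen after the values were seen left out the LiKM livers numbered 3, and with them the lowest Asl value, 130 CPM. Asl was then higher in LiKM (log2 fold change 0.71, edgeR adjusted p = 0.0146), a call that rests on this choice. Around the cycle, 7 of 23 genes fell and 1 rose on ACR. Slc7a2, a cationic amino acid transporter that carries arginine and ornithine, was at 870 ± 25.7 CPM in LiK and 279 ± 56.1 CPM in LiKM (edgeR adjusted p = 0.00253), and Slc38a4, a transporter of neutral amino acids, at 1670 ± 92.9 and 681 ± 59.5 CPM (edgeR adjusted p = 0.0034).

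ACR lowered no member at the threshold in LiK mice in the fit of all 12 libraries (0 of 10 in edgeR and in DESeq2). By edgeR 0.0648% of all tested genes were lower. At an unadjusted p under 0.05 there were 2 members, beside 1953 of all 13880 tested genes. The members' estimates lay on both sides of 0. In all, 4 urea cycle genes lay below their normal-diet values with no overlap, Cps1, Otc, Ass1 and Asl, against 14.6% of all tested genes. Pck1 lay above with no overlap, against 13.4%. Asl stood at 560, 603 and 534 CPM on the normal diet and at 235, 222 and 320 CPM on ACR, a 2.18-fold lower level (log2 fold change -1.13, SE 0.42, edgeR adjusted p = 0.269). Ass1 stood at 1240, 1480 and 1640 CPM on the normal diet and at 856, 957 and 941 CPM on ACR (-0.66, SE 0.21, edgeR adjusted p = 0.205). Cps1 stood at 3510, 4320 and 4610 CPM on ACR (-0.64, SE 0.34, edgeR adjusted p = 0.413) and Otc at 317, 344 and 339 CPM (-0.27, SE 0.14, edgeR adjusted p = 0.387).

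The test used 1 estimate of spread over all 12 libraries. The coefficient of variation of Asl was 6.18% and 20.5% in the LiK groups but 38.8% and 52.9% in the LiKM groups. In a fit of the 6 LiK libraries alone, Asl (-1.12, adjusted p = 0.00467), Ass1 (-0.66, adjusted p = 0.0201) and Cps1 (-0.64, adjusted p = 0.0426) were lower on ACR by edgeR, 3 of 10 members against 3.62% of tested genes. The same genes passed in a fit with a replicate block within LiKM, with edgeR adjusted p-values of 0.0041, 0.0105 and 0.0264. That fit was chosen after the values were seen, and its pairing was drawn from these data, so it gives no separate support. The diet groups of LiK also differed in clock and feeding genes: Dbp, a clock output, was at 25.6 to 35.9 CPM without ACR and 136 to 139 CPM with it, and Elovl6 at 711 to 915 and 205 to 331 CPM. All 11 genes of a list that rises in fed liver had estimates below 0 (median -1.13, 0 past the threshold). In LiK livers ACR and this state of clock and feeding genes cannot be told apart.

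Of the genes beside the cycle, 3 had estimates above 0 in LiK, Pck1, Sds and Hal. Pck1 stood at 2690, 2380 and 2220 CPM on the normal diet and at 3250, 3300 and 3530 CPM on ACR (log2 fold change 0.47, SE 0.33, edgeR adjusted p = 0.552). Sds (176 ± 38.0 and 211 ± 40.3 CPM), Hal (256 ± 63.6 and 300 ± 25.3 CPM) and Gls2 (332 ± 69.2 and 299 ± 22.7 CPM) overlapped between diets (SD, n = 3), as did Arg1 and Nags. G6pc, the glucose-6-phosphatase that acts at the end of gluconeogenesis, was at 889 ± 197 CPM on the normal diet and 322 ± 38.3 CPM on ACR. It was picked with its values in view and did not pass (log2 fold change -1.47, SE 0.65, edgeR adjusted p = 0.347), nor did any of the 16 genes of gluconeogenesis listed beside Pck1.

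In LiKM mice ACR changed 0 of the 10 genes and 0 of all 13880 tested genes in edgeR (0% of all tested genes, 1005 genes and 1 member at an unadjusted p under 0.05, and 79 genes but no member by DESeq2). That member was Hal, which stood at 95.9, 172 and 185 CPM on the normal diet and at 207, 256 and 352 CPM on ACR, with no overlap (log2 fold change 0.85, SE 0.27, edgeR adjusted p = 0.444). Otc, at 213, 298 and 285 CPM without ACR and 302, 350 and 306 CPM on ACR, was the other gene with all ACR livers above (3.94% of all tested genes). Pck1 ranged from 1030 to 3470 CPM among the LiKM livers on ACR, wider than its range in any other group, and Cps1 stood at 4860, 5150 and 2260 CPM.

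The difference of the diet effects between the strains passed for 0 of the 10 genes in edgeR, and for 0.0072% of all tested genes. It was positive for 9 of 10, all but Pck1. At an unadjusted p under 0.05 there were 3 members, Asl (log2 difference 1.30, SE 0.58, edgeR adjusted p = 0.435), Ass1 (0.80, SE 0.30, adjusted p = 0.356) and Otc (0.54, SE 0.19, adjusted p = 0.335), while DESeq2 called 0 members. Of all 13880 tested genes, 1593 had an unadjusted p under 0.05. With same-numbered LiKM mice treated as pairs, a fit chosen after the values were seen, Asl (1.20, adjusted p = 0.0248) and Ass1 (0.80, adjusted p = 0.0347) had a higher diet effect in LiKM by edgeR, against 0.98% of tested genes. In the fit with a replicate block in both strains, Asl passed (1.22, edgeR adjusted p = 0.0474) and Ass1 did not (0.79, edgeR adjusted p = 0.0506). The diet and strain comparisons share libraries: Cps1, Ass1, Asl and Otc had all 3 LiK livers on the normal diet above the other 9 livers, which held for 5.32% of all tested genes, and these 3 livers enter the strain comparison on the normal diet, the diet comparison in LiK and the difference of the diet effects.

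**Figure D4:**
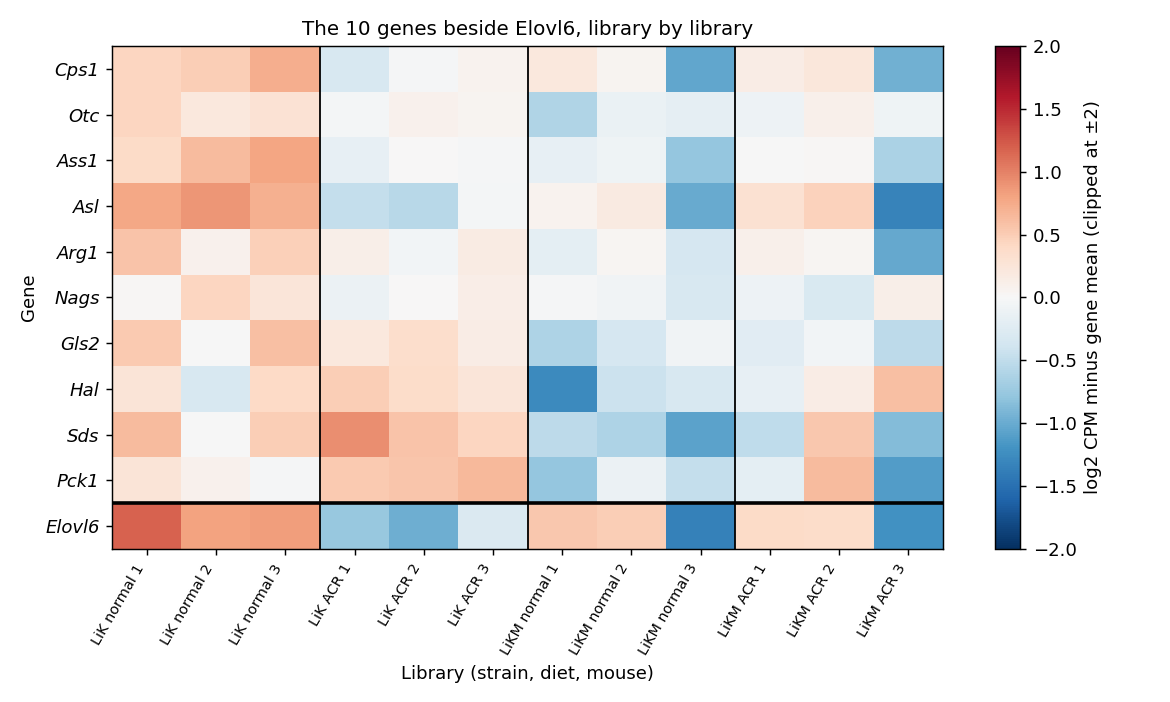
Level of each gene in each liver as log2 CPM minus its mean over the 12 libraries (colour), with Elovl6, a gene of lipid synthesis, in the bottom row. The LiK livers on ACR and the LiKM livers numbered 3 on each diet were lower in Asl and Elovl6 than all other livers.

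Within LiKM the livers numbered 3 were low in the urea cycle enzymes on both diets. The 5 enzymes summed to 7410, 7170 and 3960 CPM on the normal diet and to 7630, 8000 and 3820 CPM on ACR, beside 9730, 9750 and 11300 CPM in LiK mice fed normally and 6040, 6850 and 7370 CPM in LiK mice fed ACR. In the same order of the LiKM livers, Elovl6 stood at 587, 571 and 159 CPM and at 528, 521 and 175 CPM. Over all 12 livers the 5 with low Elovl6 had Asl at 130 to 320 CPM and the other 7 at 343 to 603 CPM, a split seen in 5 of the 11 feeding genes and chosen with the values in view. Dbp did not mark the same livers in LiKM: it was at 74.0 CPM in the third LiKM liver on the normal diet and 3.54 CPM in the third on ACR. Otc did not follow these livers, with 285 CPM and 306 CPM in the livers numbered 3. The part of the clock and feeding state in these levels was not tested.

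The genes whose pattern over the 12 livers was nearest to each member were ranked by the root mean square difference of mean-centred log2 CPM among 9427 genes. Nearest to Cps1 were Enpep (0.15) and Ugt2b34 (0.16), with Ass1 (0.20) as the nearest member. Ass1 lay nearest to Sardh and Gpld1 (both 0.13), Asl to Ahcy (0.20) and Il6ra (0.22), and Arg1 to Igfbp4 (0.11) and Gpt (0.14). Otc, which varied little, lay nearest to Cat (0.09) and Uqcrfs1 (0.10), and Nags to Suv39h1 and AI661453 (both 0.10). Gls2 lay nearest to Aldh5a1 and Echs1 (both 0.17), Hal to Elp4 (0.24) and Ebpl (0.26), Sds to Arl5b (0.23) and Slc25a32 (0.29), and Klf15 (0.23) was among the 2 genes nearest to Pck1. Cps1 and Ass1 were each other's nearest members, at 0.20, Cps1 was also the nearest member to Asl, at 0.26, and Sds and Pck1 were each other's nearest, at 0.35. The livers share strain, diet and library scaling, so these distances describe the 12 libraries only.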

How the data were processed

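Gene expression was measured by RNA sequencing of 12 livers with a stranded mRNA kit, per the labels. The authors deposited expected counts, 1 value per gene symbol and library, which need not be whole. Counting with featureCounts 2.0.0 on mm10 is named in the submitters' processing notes. No source used here gives the aligner, the annotation, the strand setting or the handling of shared reads. All value columns matched a sample title, and 0 were unmatched. Titles name separate mice and gave groups and replicate numbers. No pair of libraries in a group agreed within sampling noise.

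Expected counts were rounded, filtered with filterByExpr by group and scaled with TMM in edgeR 4.0.16 (R 4.3.3, limma 3.58.1). CPM use the TMM factors (0.83 to 1.24), and log2 CPM have a prior count of 2. Comparisons used the quasi-likelihood test of edgeR on all 12 libraries with 1 coefficient per group (5 comparisons), with Benjamini-Hochberg adjustment over all tested genes and a threshold of 0.05. The procedure was tested on simulated data. DESeq2 1.42.0, other scalings, filters, covariates and left-out libraries were alternatives. Lengths and positions come from the GENCODE M21 annotation of mm10.

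The members and lists were chosen with earlier results of these data known. All members are named. From each other list the rule names up to 4 genes of smallest p past the threshold per comparison, and for each member the 2 genes of nearest pattern with a mean of at least 5 CPM. Slc25a15, Glul, G6pc, Dbp, Elovl6 and other genes named outside this rule were picked with their values in view. Some genes chosen by the rule are left out of the text.

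For pairing, LiKM mice with the same number on the normal diet and on ACR deviated from their group means together (correlations 0.37, 0.22 and 0.48 for numbers 1, 2 and 3), and those of LiK did not (0.02, -0.05 and -0.07). The pairing comes from the data, and the labels give a number no meaning. Values with this replicate block stand beside the results whose call it changed.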

Additional observations from a re-analysis of the deposited data

How the results depend on the processing

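Most member values kept their side of the threshold under the alternatives, but most of these had no call to lose. Of the members' log2 fold changes under alternatives, 1010 kept their side of the threshold without a sign change of over 1 SE (38 of these changed sign by less than 1 SE), 35 passed the threshold only under an alternative, 14 lost a call and 11 changed sign by more than 1 SE. All 14 lost calls fell on the 4 members lower in LiKM on the normal diet, the only member calls. For other genes picked by the rule, all called in the main fit, 1470 values kept the call and 313 lost it. On the normal diet, 4 members were lower in LiKM, 2 in a fit of the compared groups alone, 7 with the identifier prefix in the labels as covariate and 1 with library size alone, and 2 to 7 with 1 library left out (2 without LiK normal diet 1 or 3 or LiKM normal diet 1, and 7 without LiKM ACR 3). All genes past the threshold there numbered 3031, 4831 with library size alone, and 1658 to 3384 with 1 library left out. The prefix was MP in LiK normal diet 2 and 3 and in LiKM ACR 3, and KM in all other libraries. On the normal diet only LiK libraries thus carried MP, and within LiK only libraries on the normal diet did. On ACR, 1359 genes passed, 2150 by DESeq2, 555 without 3 livers with unusual clock genes (LiKM normal diet number 3 and LiKM ACR numbers 2 and 3), 655 with the replicate block, and 312 to 1695 with 1 library left out. Of the members, 1 was higher there without both LiKM livers numbered 3, an alternative chosen after seeing the data, and 0 to 2 were lower with 1 library left out.

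For diet in LiK, 27 genes passed, 397 by DESeq2, 812 in the LiK libraries alone, 624 without the livers with unusual clock genes, 542 without both numbered 3, 16 with the prefix, 551 with the replicate block, 701 with the block within LiKM (also chosen after seeing the data) and 0 to 108 with 1 library left out. In all of these but DESeq2, the prefix and the left-out single libraries, 3 members were lower. For diet in LiKM, 0 genes passed, 79 by DESeq2, 1 without the livers with unusual clock genes, 7 with the replicate block, 9 with the block within LiKM and 0 to 5 with 1 library left out. For the difference of diet effects, 1 gene passed, 160 by DESeq2, 15 without the livers with unusual clock genes, 52 without both numbered 3, 0 with the prefix, 16 with library size alone, 2 with no filter, 146 with the replicate block, 260 with the block within LiKM and 0 to 20 with 1 library left out. Of the members, 1 was higher without both numbered 3 and 1 with the replicate block, and 2 with the block within LiKM.

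Signs changed by more than 1 SE, with no call, in the following log2 fold changes. The prefix turned Pck1 (-0.10) and Sds (-0.18) for diet in LiK, and Nags (-0.04) and Pck1 (0.63) for the difference of diet effects. Library size alone turned Gls2 (-0.08) for that difference. Leaving out the livers with unusual clock genes turned Sds (-0.19) for that difference and Arg1 (0.01) between strains on ACR. Leaving out both numbered 3 turned Nags (-0.12) for diet in LiKM. Leaving out 1 library turned Arg1 (range -0.23 to 0.26, the latter without LiKM ACR 3) and Pck1 (-0.15, without LiKM ACR 2, to 0.73) for diet in LiKM, and Sds (-0.22, without LiKM ACR 2, to 0.56) for the difference. The cause of these changes was not tested. Mean counts per library were 737 or more for each member, so counting error was small beside the spread between livers.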

Other observations

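Aldh18a1, which makes the precursor of proline and ornithine from glutamate, stood at 1.27, 1.87 and 1.17 CPM in LiK and at 6.66, 3.45 and 6.92 CPM in LiKM on the normal diet (log2 fold change 1.96, edgeR adjusted p = 0.00743), with no overlap. Asns, asparagine synthetase, stood at 0.141, 0.792 and 1.26 CPM and at 4.86, 0.704 and 4.69 CPM and did not pass (edgeR adjusted p = 0.131). Arg2, the mitochondrial arginase, was at 0.305 to 1.08 CPM over all 12 livers, and Arg1 at 513 to 1540 CPM. Slc1a4, a transporter of neutral amino acids listed here with the pericentral genes, rose in LiKM on both diets, from 4.48 ± 0.392 to 12 ± 6.48 CPM on the normal diet and from 3.42 ± 0.905 to 20.8 ± 8.70 CPM on ACR (edgeR adjusted p = 0.025 and 0.00598, SD, n = 3).

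Igfbp1, a fasting-induced gene of the hepatocyte, rose in LiKM on both diets, from 51.7 ± 26.7 to 175 ± 50.6 CPM on the normal diet and from 100 ± 26.5 to 412 ± 239 CPM on ACR (edgeR adjusted p = 0.0239 and 0.0252, SD, n = 3). Cpt1a, which brings fatty acids into mitochondria and is also induced by fasting, fell on both (log2 fold change -0.67 and -1.24, edgeR adjusted p = 0.0252 and 0.00515). Of 13 listed genes that rise with fasting, no others passed on the normal diet, and Pdk4 alone also rose on ACR (2.18, edgeR adjusted p = 0.0192). In this list 5 estimates lay above and 8 below 0 on the normal diet, and 3 above and 10 below on ACR.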
